A study of Mus musculus with 6 samples.

Results

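Trip12 and 7 further ubiquitin ligase genes of the HECT class were described in mouse liver: Huwe1, Nedd4, Nedd4l, Itch, Smurf1, Smurf2 and Wwp1. These 8 genes were taken by symbol from the 55802 symbols of the deposited count tables, and all 8 passed the filter on low counts. They were measured in 3 liver libraries from male C57BL/6 mice given chow with PS-MP, polystyrene microplastic particles, and in 3 from male C57BL/6 mice on normal chow, called control here. Both groups were reared for 71 weeks, and no transgene or deletion is named for either. The sources used here do not give particle size, dose or start of exposure. Trip12 was chosen by its diet difference, since it ranked 5 by edgeR p among named genes with higher levels in PS-MP, so its diet difference is a description and carries no test. The other 7 were added as relatives of the same enzyme class, with earlier results of these libraries known, and are described in the same way.

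Ubiquitin ligases attach ubiquitin, a small protein tag, to other proteins and so mark them for the proteasome or for sorting. In the HECT class the ligase itself takes up ubiquitin on a cysteine of its C-terminal domain before passing it to the substrate. The NEDD4 branch, with Nedd4, Nedd4l, Itch, Smurf1, Smurf2 and Wwp1 among its genes, recognises proline-rich motifs through WW domains and acts on membrane proteins and on TGF-beta and BMP signalling. Trip12 and Huwe1 encode large ligases of the nucleus and cytoplasm, linked to DNA damage signalling and to the turnover of cell cycle and survival proteins.

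The libraries held 68357478 to 112566641 counts. Several library-wide measures did not overlap between diets. The share of 18S ribosomal RNA (Rn18s-rs5) was 0.387% to 1.14% in PS-MP and 1.15% to 11.2% in control. Control replicate 2 had the highest share, 11.2%, and the fewest counts, 68357478. The number of genes with a count was 24004 to 24763 in PS-MP and 23042 to 23791 in control. The summed level of 6 Kupffer cell and macrophage markers was 143 to 164 CPM in PS-MP and 92.1 to 125 CPM in control, and all 6 had a log2 fold change above 0. Red cell markers summed to 571 to 848 CPM in PS-MP and 263 to 504 CPM in control. Of these 6 markers, 5 had a log2 fold change above 0 and Alas2 had -0.07, and ranges did not overlap for 2. Neutrophil markers summed to 1.55 to 5.15 CPM in PS-MP and 0.841 to 1.18 CPM in control, with Ly6g at 0 in every library. Of the 4 neutrophil markers tested, 3 had a log2 fold change above 0 and Elane had -0.22. The part of these differences in the values below was not tested. Sums overlapped for markers of hepatocytes (64472 to 85419 CPM in PS-MP, 61673 to 74543 CPM in control), endothelium, stellate cells, cholangiocytes, lymphocytes and adipocytes. In whole liver, fewer cells of a type and less RNA per cell cannot be told apart. Nothing in the labels ties each replicate to its own animal, so p-values cover only library-to-library spread, which may be technical.

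Trip12 and Huwe1 are the members furthest apart in diet difference, and their promoters are shown for that reason. The windows run from 250 bases before to 50 bases after a RefSeq transcript start, read 5′ to 3′ along the gene, and capitals mark CG dinucleotides. Trip12 is at chr1:84839255-84839554 on the minus strand and Huwe1 at chrX:151803032-151803331 on the plus strand, both in GRCm38.p6, an earlier build than the GRCm39 of the counts.
Trip12: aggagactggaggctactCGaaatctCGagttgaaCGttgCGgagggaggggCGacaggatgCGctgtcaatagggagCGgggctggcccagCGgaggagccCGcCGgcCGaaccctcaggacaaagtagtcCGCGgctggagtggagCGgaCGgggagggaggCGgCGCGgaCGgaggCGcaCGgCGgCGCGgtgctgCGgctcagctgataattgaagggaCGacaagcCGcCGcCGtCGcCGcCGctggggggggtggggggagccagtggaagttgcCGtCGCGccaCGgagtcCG
Huwe1: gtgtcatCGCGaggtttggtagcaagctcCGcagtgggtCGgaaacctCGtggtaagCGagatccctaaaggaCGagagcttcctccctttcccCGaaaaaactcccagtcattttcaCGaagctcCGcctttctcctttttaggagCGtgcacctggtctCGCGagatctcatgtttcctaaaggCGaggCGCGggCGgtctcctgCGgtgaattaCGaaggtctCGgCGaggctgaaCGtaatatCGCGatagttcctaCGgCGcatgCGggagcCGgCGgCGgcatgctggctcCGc
The Trip12 window held 37 CG dinucleotides at 70.3% G and C, and the Huwe1 window 31 at 58.3%, where the median of 32851 promoter windows in the table was 7 CG dinucleotides and 52.7%. On either strand, the Trip12 window held none of the 7 motifs searched, which were the TATA box (TATAAA), the CCAAT box (CCAAT), the GC box (GGGCGG), the E-box (CACGTG), an ETS motif (CCGGAAG), the palindrome CTCGCGAG and the NRF1 motif GCGCATGCG. The Huwe1 window held 1 CTCGCGAG at position -91 from the start, which 0.919% of all windows hold. That palindrome was added to the search after the sequence was seen. It also held 1 GCGCATGCG at position 13, found in 1.75% of windows, and 1 GGGCGG at position -56, found in 35.7%, and the 3 matches did not overlap. Windows of 5 of the 8 members were examined. No window was at hand for Itch and Wwp1, and that of Nedd4l was left out and is not reported here. The windows of Smurf1 and Smurf2 held 49 and 43 CG dinucleotides, and the 2 windows of Nedd4 held 35 and 13.

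Trip12 encodes a ligase known for restraining the spread of ubiquitin signals at DNA breaks and for the turnover of the tumour suppressor ARF. Its level was 46.6, 51.6 and 46.7 CPM in the PS-MP libraries and 24.3, 23.4 and 16.8 CPM in the control libraries. CPM here are counts scaled to a common library total, with the trimmed mean of M values (TMM) as scaling factor. All 3 PS-MP libraries lay above all 3 control libraries. The mean was 48.3 ± 2.84 CPM in PS-MP and 21.5 ± 4.07 CPM in control (SD, n = 3 each). The log2 fold change, PS-MP minus control, was 1.17 (SE 0.17), or 2.25-fold with a 95% interval of 1.69 to 2.99. Of the 17662 genes tested, 2.86% had a log2 fold change at least as high. The counts behind these levels were 3836, 4553 and 4003 in PS-MP and 1762, 1423 and 1779 in control, so counting error was small beside the difference. In the annotation of the earlier build, Fbxo36 overlaps Trip12 on the opposite strand, and reads of such genes cannot be told apart without the strand setting. Fbxo36 itself was lower than Trip12 in every library, at 6.85, 6.55 and 5.35 CPM in PS-MP and 9.08, 5.45 and 9.20 CPM in control.

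**Figure D1:**
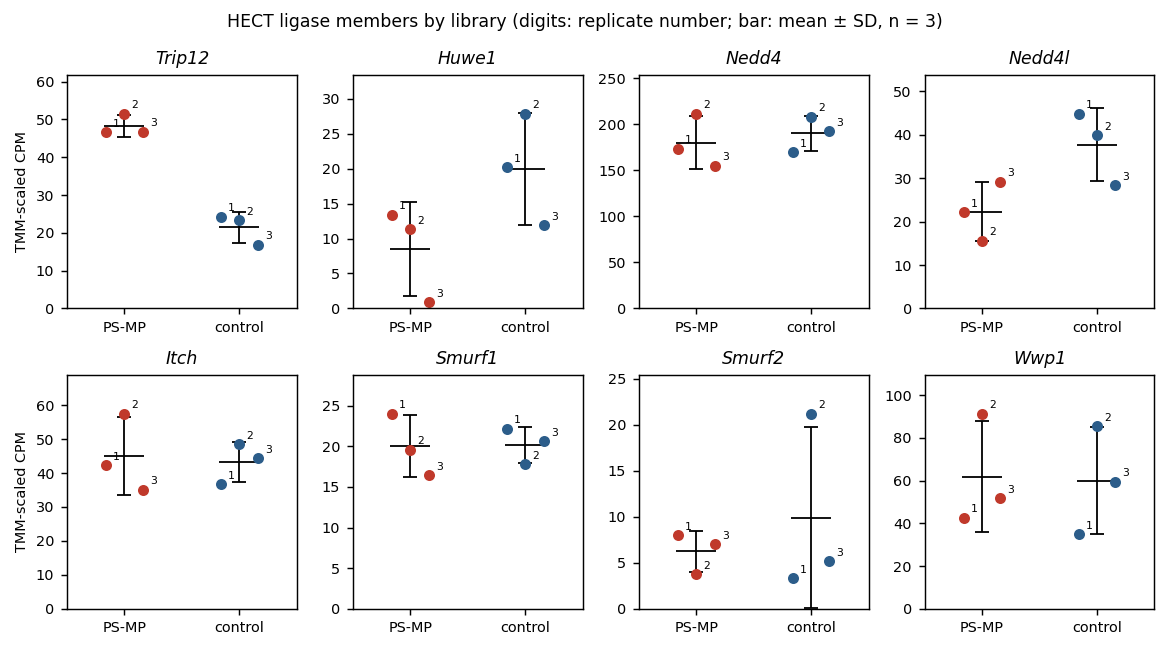
TMM-scaled CPM of the 8 members in each library, PS-MP left and control right in each panel, with points numbered by replicate and a bar for the mean ± SD (n = 3 each). Trip12 separates the diets (46.6 to 51.6 CPM in PS-MP, 16.8 to 24.3 CPM in control), while the other 7 overlap and Huwe1 is at 0.888 CPM in PS-MP replicate 3.

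Huwe1 encodes a very large ligase that acts on survival and cell cycle proteins such as Mcl1, p53 and Myc. Its level was 13.4, 11.3 and 0.888 CPM in PS-MP and 20.2, 27.9 and 11.9 CPM in control. PS-MP replicate 3 stood far below the other 5 libraries, and the other PS-MP libraries overlapped with control replicate 3. That library held 76 counts of Huwe1 (exact Poisson 95% interval 59.9 to 95.1, counting error only), where the other 5 held 997 to 1697. The highest PS-MP library was 15.1 times the lowest, a within-diet spread that 1.48% of 8732 genes of at least 5 CPM reached. The log2 fold change was -1.23 (SE 0.86, 95% interval -3.28 to 0.82). Leaving out PS-MP replicate 3 gave -0.71, and leaving out PS-MP replicate 1 gave -1.72.

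Nedd4, the founder of its branch and a regulator of receptors such as the insulin-like growth factor receptor, was the most abundant member in every library. It stood at 174, 212 and 155 CPM in PS-MP and 170, 208 and 192 CPM in control. The diets overlapped, with replicate 2 highest in both. Its log2 fold change was -0.08 with a 95% interval of -0.46 to 0.30, which leaves out a 2-fold difference in either direction.

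Nedd4l, best known for removing the epithelial sodium channel from the cell surface, was at 22.2, 15.6 and 29.2 CPM in PS-MP and 44.9, 39.9 and 28.4 CPM in control. PS-MP replicate 3 lay just above control replicate 3, so the diets overlapped by a narrow margin. The mean was 22.3 ± 6.84 CPM in PS-MP and 37.7 ± 8.45 CPM in control (SD, n = 3 each). The log2 fold change was -0.76 (SE 0.28, 95% interval -1.41 to -0.10). It stayed below 0 with each library left out, between -1.01 and -0.55.

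Itch, which limits JunB and other proteins in immune cells, was at 42.4, 57.4 and 35.1 CPM in PS-MP and 36.7, 48.4 and 44.4 CPM in control. Wwp1, whose ligase acts on TGF-beta receptor signalling, was at 42.7, 91.2 and 51.8 CPM in PS-MP and 34.97, 85.3 and 59.5 CPM in control. Replicate 2 was the highest library of both diets for both genes, and the difference between libraries of a diet was larger than that between diets. The log2 fold change was 0.06 for Itch (95% interval -0.45 to 0.57). It was 0.05 for Wwp1 (95% interval -0.906 to 0.999). The sign of both turned when single libraries were left out, over -0.16 to 0.20 for Itch and -0.34 to 0.39 for Wwp1.

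Smurf1 and Smurf2 encode ligases that act on Smad proteins and on TGF-beta and BMP receptors. Smurf1 was at 24.0, 19.6 and 16.5 CPM in PS-MP and 22.2, 17.8 and 20.7 CPM in control, and its log2 fold change was -0.01 (95% interval -0.45 to 0.42). Smurf2 was the member of lowest CPM on average, at 7.98, 3.73 and 7.02 CPM in PS-MP and 3.33, 21.2 and 5.19 CPM in control. Control replicate 2 was the highest of all 6 libraries, and the other 2 control libraries lay within or below the PS-MP range. That within-diet spread of 6.36 times was reached by 3.45% of genes of at least 5 CPM. The log2 fold change of Smurf2 was -0.66 (SE 0.70, 95% interval -2.35 to 1.02), and without control replicate 2 it was 0.55.

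**Figure D2:**
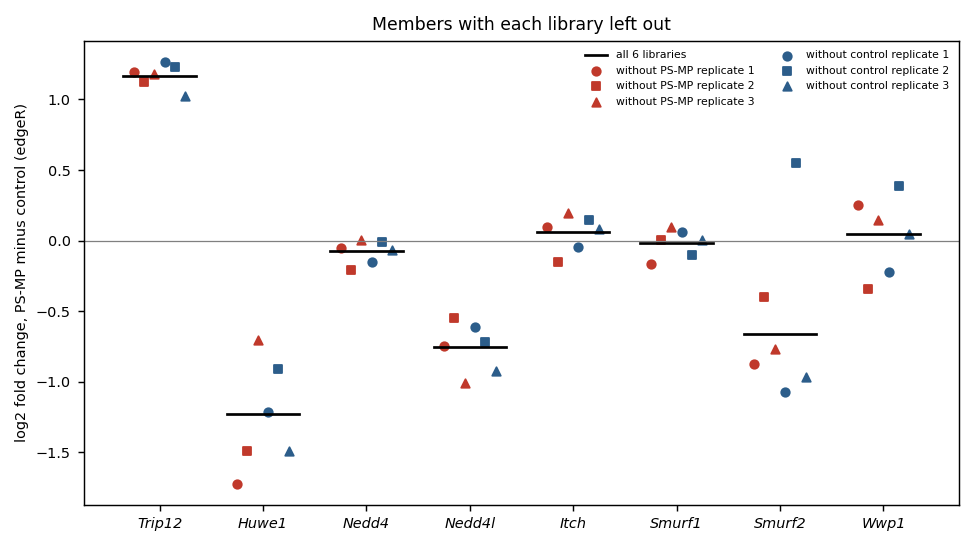
Log2 fold change (PS-MP minus control, edgeR) of each member with all 6 libraries (black bar) and with each library left out in turn (red without a PS-MP library, blue without a control library). Trip12 stays between 1.02 and 1.27 and Nedd4l between -1.01 and -0.55, while Smurf2 spans -1.07 to 0.55. Trip12 was chosen by its diet difference in these libraries, so nothing is read from its narrow range.

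As a set, 3 members had a log2 fold change above 0 and 5 below, with a median of -0.05, where the median of all genes tested was 0.02. With scaling by library size alone the medians were 0.17 for the members and 0.23 for all genes. With the edgeR quasi-likelihood test and Benjamini-Hochberg adjustment over all genes, 0 of the 8 members passed 0.05, where 0.0113% of all genes tested did. At an unadjusted p under 0.05 there were 2 (Trip12 and Nedd4l), where 5.38% of all genes were. DESeq2 called 1 member, Trip12, where it called 1.06% of all genes, and limma-voom called 0. The CPM ranges of the diets did not overlap for 1 of 8 members, 12.5%, where they did not for 11.2% of all genes tested. For 4 members (Nedd4, Itch, Smurf1 and Wwp1) the 95% interval lay inside a 2-fold change, as it did for 53.6% of all genes. Nothing is read from these shares, because the members were chosen with this comparison known.

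The summed level of the 8 members overlapped between diets, at 373, 462 and 342 CPM in PS-MP and 356, 472 and 379 CPM in control. Replicate 2 was highest in both diets. Nedd4 alone made up 45.9% ± 0.637 of the sum in PS-MP and 47.5% ± 3.31 in control (SD, n = 3 each). Trip12 made up 12.5%, 11.2% and 13.7% of the sum in PS-MP and 6.81%, 4.95% and 4.43% in control.

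Levels were also set against exonic length, taken from GENCODE M21 of the earlier build, so that genes could be compared with each other. This length joins the exons of all annotated transcripts of a gene and can exceed that of the transcript made in liver. The ranks below depend on it. Per kb of exonic length, Nedd4 stood at 16.4 ± 2.63 CPM in PS-MP and 17.3 ± 1.75 CPM in control (SD, n = 3 each), first among the 26 HECT genes examined in both diets. Among the other members, Wwp1 followed with 9.59 ± 4.001 CPM per kb in PS-MP and 9.29 ± 3.90 in control, and Itch with 4.63 ± 1.17 in PS-MP and 4.45 ± 0.614 in control. Smurf1 stood at 3.16 ± 0.599 CPM per kb in PS-MP and 3.19 ± 0.349 in control. In control these 4 genes did not overlap with one another, and in PS-MP Nedd4 and Wwp1, and Itch and Smurf1, overlapped. Trip12, with an exonic length of 16601 bases, was at 2.91 ± 0.171 CPM per kb in PS-MP and 1.29 ± 0.245 in control. That put it at rank 11 of these 26 HECT genes in PS-MP, next to Smurf1, and at rank 16 in control, where it overlapped with Smurf2 above and Huwe1 below. Nedd4l was at 1.26 ± 0.387 CPM per kb in PS-MP and 2.14 ± 0.479 in control, and Smurf2 at 1.01 ± 0.362 in PS-MP and 1.61 ± 1.59 in control. Huwe1, with 23507 bases the longest member, was lowest among them, at 0.363 ± 0.285 CPM per kb in PS-MP and 0.850 ± 0.340 in control. Among all genes tested, the fifth of longest exonic length, 6795 bases and above, had a median log2 fold change of 0.04.

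**Figure D3:**
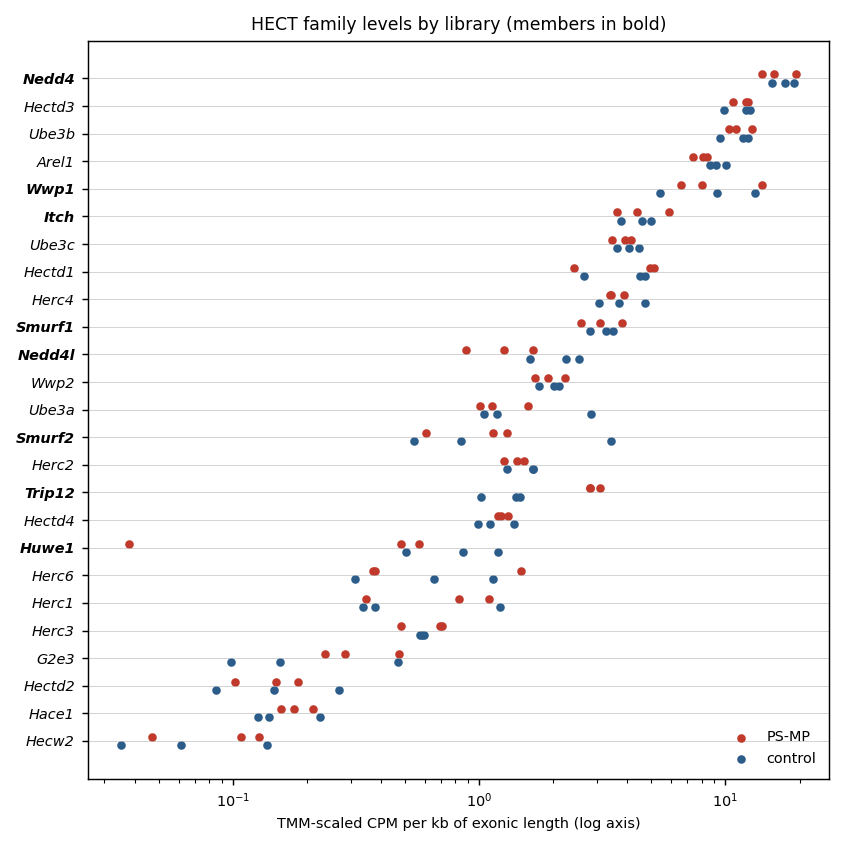
TMM-scaled CPM per kb of exonic length (log axis) of 25 HECT genes tested, 1 point per library, PS-MP in red above control in blue, ordered by the control mean, members in bold. Nedd4 tops both diets (16.4 and 17.3 CPM per kb on average in PS-MP and control), and Trip12 is at 2.91 in PS-MP and 1.29 in control.

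Of the 18 other HECT genes examined, 17 were tested and 0 passed over all genes (edgeR; lowest adjusted p = 0.952; with no adjustment 0 had p under 0.05; DESeq2 and limma-voom called 0). Their log2 fold changes lay between -0.45 and 0.47, with 10 above 0, 7 below and a median of 0.03. Arel1, an anti-apoptotic ligase, was the 1 gene among the 17 whose diets did not overlap, 5.88%, where 11.2% of all genes tested did not. Arel1 was at 51.0, 48.9 and 44.8 CPM in PS-MP and 55.4, 52.5 and 60.6 CPM in control; log2 fold change -0.22 (SE 0.12), edgeR adjusted p 0.952. Ube3a, the ligase gene of Angelman syndrome, averaged 25.4 ± 6.16 CPM in PS-MP and 34.8 ± 20.6 CPM in control (SD, n = 3 each), with control replicate 2 at 58.6 CPM. Herc2 had a log2 fold change of -0.13, Hectd4 of 0.10, Hace1 of 0.15 and G2e3 of 0.47, all with overlapping diets. The 95% interval lay inside a 2-fold change for 11 of the 17. Hecw1 had 0 counts in each library.

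**Figure D4:**
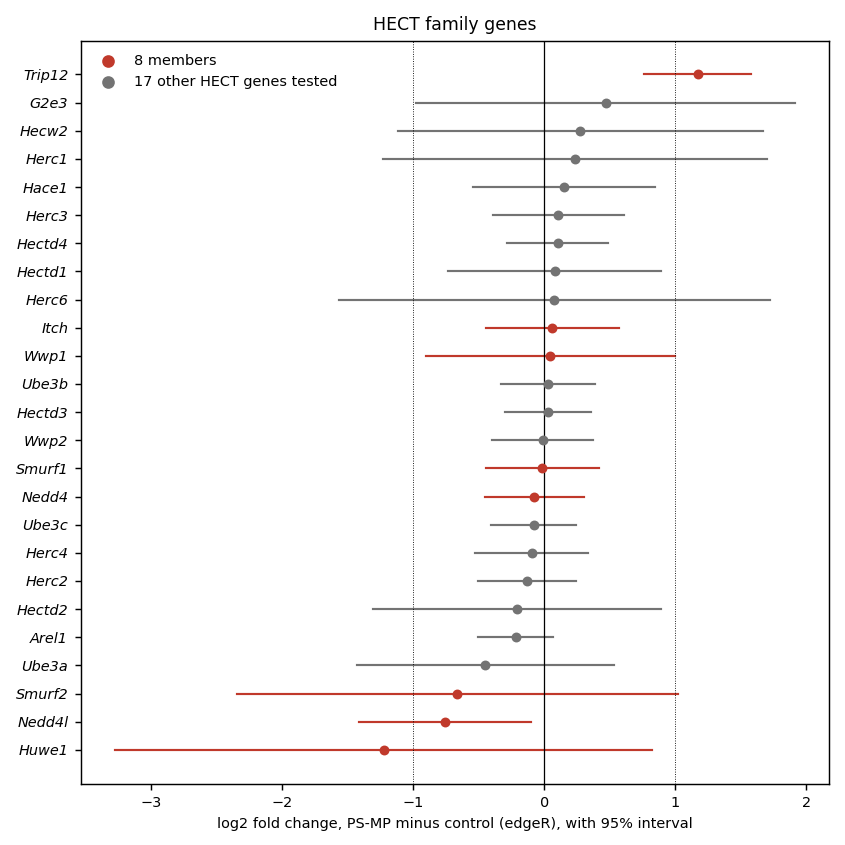
Log2 fold change (PS-MP minus control, edgeR) of 25 HECT genes tested, as points with 95% intervals, members in red and the other 17 in grey; dotted lines mark a 2-fold change. Trip12 is at 1.17 and Huwe1 at -1.23, and the 17 others lie between -0.45 and 0.47.

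HECT ligases receive ubiquitin from an E1 enzyme through E2 enzymes, and 16 of 16 genes of this supply were tested. With edgeR 0 passed over all genes (lowest adjusted p = 0.955; with no adjustment 0 had p under 0.05; DESeq2 and limma-voom called 0). The median log2 fold change was -0.09, and the 95% interval lay inside a 2-fold change for all 16. Of the 16, 13 lay below 0, where 8341 of the 17662 genes tested did. With scaling by library size alone the median of the 16 was 0.13, where that of all genes was 0.23. The lowest adjusted p was that of Ube2l6, an interferon-induced E2 gene, at 46.6, 53.9 and 40.9 CPM in PS-MP and 61.0, 49.2 and 62.8 CPM in control. The diets overlapped through control replicate 2 (log2 fold change -0.29, SE 0.16). Ube2l3, an E2 that works with HECT ligases, averaged 79.4 ± 1.29 CPM in PS-MP and 89.98 ± 11.5 CPM in control (SD, n = 3 each; log2 fold change -0.18). The ubiquitin genes Ubb and Rps27a had log2 fold changes of -0.21 and 0.29. Ube2d3 had 0.01, and the E1 gene Uba1 had -0.05. Ranges did not overlap for 2 of the 16, Ube2e3 and Ube2n, both lower in PS-MP; that is 12.5%, near the 11.2% of all genes tested.

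Adaptors and inhibitors steer the NEDD4 branch, and 15 of 15 such genes were tested. With edgeR 0 passed (lowest adjusted p = 0.923; with no adjustment 0 had p under 0.05; DESeq2 and limma-voom called 0), the median log2 fold change was 0.02, and the diets overlapped for all 15. Ndfip1, an activator of Nedd4 and Itch, was at 181, 210 and 175 CPM in PS-MP and 184, 209 and 226 CPM in control (log2 fold change -0.13, SE 0.14). Arrdc4, an arrestin-like adaptor, averaged 12.9 ± 3.48 CPM in PS-MP and 9.09 ± 0.617 CPM in control (SD, n = 3 each; log2 fold change 0.51). Sgk1, the kinase that inhibits Nedd4l, had a log2 fold change of 0.34 (SE 0.31), and Smad7, which recruits the Smurf ligases to receptors, had -0.12. Tnfaip3, which works with Itch to limit NF-kappaB signalling, had 0.67 (SE 0.36).

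Among partners and substrates of Trip12 and Huwe1, 17 of 18 were tested and 0 passed with edgeR (lowest adjusted p = 0.923; with no adjustment 0 had p under 0.05; DESeq2 and limma-voom called 0). Usp7, a deubiquitinase that stabilises Trip12 protein, was at 1.17, 4.29 and 3.26 CPM in PS-MP and 1.501, 55.1 and 8.19 CPM in control. Control replicate 2 stood apart, 36.7 times the lowest control library, and the diets overlapped (log2 fold change -2.89, SE 1.23). Sox6, whose protein is a substrate of Trip12 in muscle cells, was at 0.376, 0.623 and 8.70 CPM in PS-MP and 8.73, 1.08 and 0.293 CPM in control, high in 1 library of each diet. Fbxw7 was at 1.78, 0.498 and 7.45 CPM in PS-MP and 0.881, 1.13 and 1.002 CPM in control, so its log2 fold change of 1.69 (SE 0.88) came with PS-MP replicate 3 far above the rest. Cdkn2a, the gene of ARF, was low, at 0.571, 0.521 and 0.537 CPM in PS-MP and 0.386, 0.411 and 0.416 CPM in control. Its diets did not overlap (log2 fold change 0.42, SE 0.26, edgeR adjusted p = 0.969). Ranges did not overlap for 2 of the 17 tested, Cdkn2a and Hk2, which is 11.8%, near the 11.2% of all genes tested. For the Huwe1 substrates, Mcl1 averaged 90.4 ± 24.1 CPM in PS-MP and 70.7 ± 9.21 CPM in control (SD, n = 3 each; log2 fold change 0.35), Trp53 had a log2 fold change of 0.04 and Myc 0.07. The hexokinase gene Hk2 was lower without overlap, at 0.867 ± 0.303 CPM in PS-MP and 1.398 ± 0.0975 CPM in control (SD, n = 3 each; log2 fold change -0.69, SE 0.31, adjusted p = 0.923).

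For substrates of the NEDD4 branch, 13 of 17 were tested and 0 passed with edgeR (lowest adjusted p = 0.931; with no adjustment 0 had p under 0.05; DESeq2 and limma-voom called 0). Smad1, the BMP signal carrier that Smurf1 marks for degradation, was at 10.5, 10.7 and 10.1 CPM in PS-MP and 12.2, 12.9 and 12.3 CPM in control. The diets did not overlap, and the spread within each was small (log2 fold change -0.26, SE 0.13, adjusted p = 0.940). Rhoa, the GTPase that Smurf1 removes at cell protrusions, averaged 116 ± 5.37 CPM in PS-MP and 130 ± 6.66 CPM in control (SD, n = 3 each; log2 fold change -0.16, adjusted p = 0.984), also without overlap. Klf5, a substrate of Wwp1, was near the limit of measurement at 0.208 ± 0.0365 CPM in PS-MP and 0.105 ± 0.0458 CPM in control (SD, n = 3 each; log2 fold change 1.01, adjusted p = 0.931). Smad2 had a log2 fold change of -0.05, Smad5 of 0.09, Tgfbr1 of -0.06 and Igf1r of 0.13. Of the sodium channel genes regulated by Nedd4l, Scnn1a had 0.46, while Scnn1b was at 0 in each library and Scnn1g did not pass the filter. Ranges did not overlap for 3 of the 13, where they did not for 11.2% of all genes tested.

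**Figure D5:**
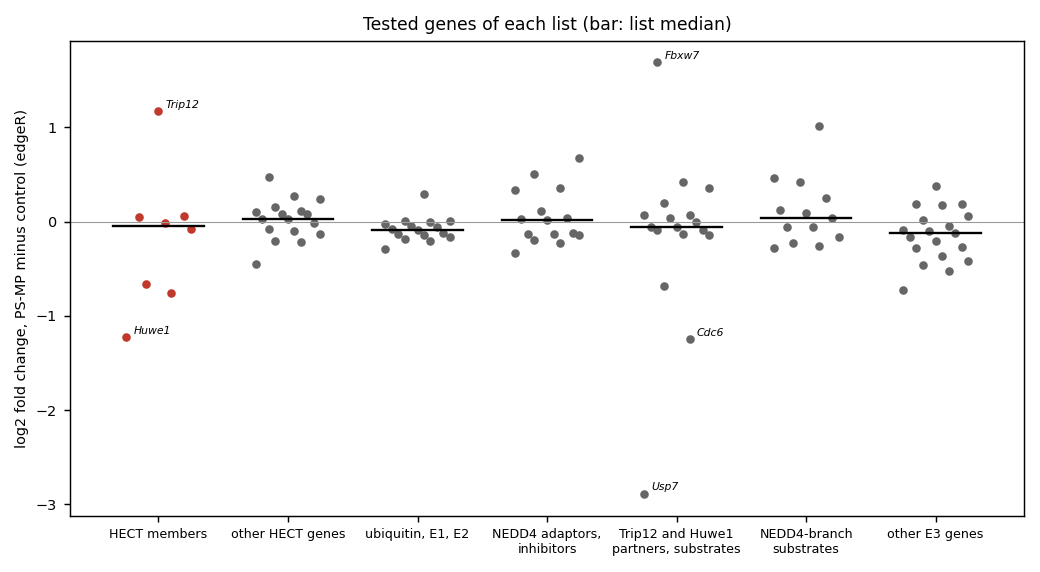
Log2 fold change (PS-MP minus control, edgeR) of each tested gene in the 8 members and in 6 lists of related genes, with a bar at the median of each list. Medians lie between -0.12 and 0.04, and Trip12 (1.17), Huwe1 (-1.23), Usp7 (-2.89), Cdc6 (-1.25) and Fbxw7 (1.69) lie furthest from 0.

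Genes whose levels over the 6 libraries were most like those of Trip12 were sought among 8341 other named genes of at least 5 CPM. By Pearson correlation of log2 CPM across the 6 libraries, a description that was not tested, the closest were Pabpc4 (0.989), Actl6a (0.986), Nrbp2 (0.985), Kyat3 (0.983) and Mafg (0.968), and 11 genes reached 0.95. Because Trip12 differs between diets, this measure picks genes that do so too. Pabpc4, which encodes a poly(A)-binding protein, averaged 34.3 CPM in PS-MP and 28.9 CPM in control, and Kyat3, an aminotransferase gene, 46.9 CPM in PS-MP and 8.88 CPM in control. With the mean of each diet subtracted, other genes came first: Adgrf5 (0.982), Tbl1xr1 (0.980), Slc39a14 (0.979), Pkm (0.975) and Lpin2 (0.975). These were low in control replicate 3, as Trip12 was: Adgrf5 stood at 16.9, 18.3 and 6.17 CPM in control and Tbl1xr1 at 26.7, 24.5 and 6.42 CPM. None of the other 7 members was close to Trip12 by either measure, with coefficients of -0.66 to 0.10 over the libraries and -0.07 to 0.38 within diets.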

How the data were processed

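Liver RNA was sequenced in 6 libraries, 3 per diet. Directional libraries were prepared from poly(A) RNA, per the labels' protocols. Tools named in the submitters' processing notes are bcl2fastq, with build GRCm39. No source used here names the aligner, counting program, annotation or strand setting. The deposited values are unnormalised whole-number read counts per gene, 68357478 to 112566641 per library. Rows with the same symbol were summed (67 symbols of 55802; none of the members). A series-wide table with identical counts was not used.

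With R 4.3.3, genes were filtered (filterByExpr, 17662 kept), scaled by TMM and fitted with edgeR 4.0.16 (quasi-likelihood F test, diet the one term), with Benjamini-Hochberg adjustment over all genes. The SE was derived from the log2 fold change and the F statistic, an approximation. Intervals are 95%, from that SE and moderated degrees of freedom (median over genes 6.63). Alternatives were other scalings and filters, DESeq2 1.42.0, limma-voom (limma 3.58.1), robust dispersions, the replicate number as a block and each library left out. The fit was also run on counts simulated from its own fitted means and dispersions. That run checks the code, not how well the model suits these data. Members, lists and tests were chosen with earlier results of these data known. All members are named; from each related list, the 3 genes of smallest p in each direction, those past the threshold or spanning over 16-fold within a diet could be named, and others were chosen after their values were seen. RefSeq promoters and GENCODE M21 lengths (90.8% of symbols matched) are of GRCm38. A few genes of the related lists are not reported here.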

Additional observations from a re-analysis of the deposited data

How the results depend on the processing

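With each library left out in turn, the log2 fold change was 1.02 to 1.27 for Trip12, -1.72 to -0.71 for Huwe1, -0.21 to 0.01 for Nedd4, -1.01 to -0.55 for Nedd4l, -0.16 to 0.20 for Itch, -0.17 to 0.10 for Smurf1, -1.07 to 0.55 for Smurf2 and -0.34 to 0.39 for Wwp1. The member median was -0.28 to 0.07, and the difference in summed CPM (PS-MP minus control) was -45.0 to 24.6, against -10.1 with all libraries. In those fits 0 members and 0 genes of the related lists were called, and 0 to 4 genes over all genes, against 2 with all libraries: 1 without PS-MP replicate 1 or 3, 4 without control replicate 2 and 0 without control replicate 3. DESeq2 called 187 genes over all, 1.06% of those it tested, and limma-voom called 1 gene. The 1 member among the DESeq2 calls was Trip12. It was chosen by its diet difference in these libraries, so nothing is read from that call or from its narrow range with libraries left out. Scaling by library size alone put the median of all genes at 0.23 (0.02 with TMM), with Trip12 at 1.38, Nedd4 at 0.14, Smurf1 at 0.19, the member median at 0.17 and the difference in summed CPM at 51.0; the signs of the last 4 turned there. Smurf1 also turned with upper quartile scaling (0.0081) and a filter at 1 CPM (0.0016). The cause of these shifts was not tested.

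Libraries of the same replicate number did not deviate together throughout (correlations across genes of 0.0924, 0.125 and -0.119), so the numbers were not taken as pairs. The replicate block left 0 genes called, with Trip12 at 1.19, Huwe1 at -1.80 and Smurf2 at -0.18. Removing 18S ribosomal RNA, an alternative chosen after seeing the data, left Trip12 at 1.17. Levels under 1 CPM, such as Klf5 and Cdc6, rest on few counts.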

Other observations

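Of 20 scaffold and large ubiquitin ligase genes outside the HECT class, 19 were tested and 0 passed over all genes (edgeR, lowest adjusted p = 0.889). DESeq2 and limma-voom called 0, and the median log2 fold change was -0.12. With no adjustment 1 of the 19 had an edgeR p under 0.05, near the 5.38% of all genes tested. Ranges did not overlap for 2 of the 19, Mycbp2 and Cul9, which is 10.5%, near the 11.2% of all genes tested. The smallest p was that of Mycbp2, a very large ligase gene, at 6.39, 10.6 and 11.9 CPM in PS-MP and 18.2, 14.96 and 14.5 CPM in control. All PS-MP libraries lay below all control libraries (log2 fold change -0.72, SE 0.26, adjusted p = 0.889). Cul9, a cullin of the p53 network, was higher without overlap, at 7.06 ± 1.303 CPM in PS-MP and 5.44 ± 0.376 CPM in control (SD, n = 3 each; log2 fold change 0.38, adjusted p = 0.941). The cullin genes Cul1 and Cul4a had log2 fold changes of 0.02 and -0.05. Rnf213, a giant ligase gene, held 0, 76 and 1 counts in the PS-MP libraries and 0 in each control library, and did not pass the filter.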
